A study of Homo sapiens with 12 samples.

Results

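The genes described here are 10 of the 15798 genes in the count table, chosen by symbol as core components and standard targets of the Hippo-YAP/TEAD pathway: the coactivator genes YAP1 and WWTR1 (which encodes TAZ), the transcription factor genes TEAD1 and TEAD3, the kinase genes LATS1 and LATS2, and the target genes CCN1, CCN2, AMOTL2 and ANKRD1. They were measured by ribosome profiling in HCT116, a human colorectal carcinoma cell line. Cells received 100 nM trametinib, an allosteric inhibitor of the kinases MEK1/2, or the solvent DMSO for 24 h. Each treatment had 3 biological replicates, and each replicate gave an input (IN) library of fragmented cytoplasmic RNA and a library of ribosome-protected fragments (RPF, footprints), so 12 libraries form 4 groups of 3. No other agent distinguished the groups, and all dishes were briefly exposed to cycloheximide before lysis. The comparison asks how MEK1/2 inhibition alters each gene's mRNA, its ribosome footprints and the number of footprints per mRNA.

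The Hippo pathway is a kinase cascade in which LATS1 and LATS2 phosphorylate YAP and TAZ and thereby hold them out of the nucleus. When the kinases are inactive, YAP and TAZ enter the nucleus and bind TEAD factors, which carry the DNA-binding domain that the coactivators lack. Target genes include secreted matricellular proteins (CCN1, CCN2), the cardiac ankyrin repeat protein gene ANKRD1, and the feedback genes AMOTL2 and LATS2, and in the intestine the pathway is best known for its part in epithelial regeneration.

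RefSeq promoter windows (GRCh38.p14) of 250 bases before an annotated start were matched for 8 of the 10 genes, in 11 windows, and searched on both strands for the TEAD core motif GGAATG and for the AP-1 motif TGANTCA. The 3 windows below are shown because they hold the TEAD core (capitals) in 2 targets and in the coactivator gene whose mRNA changed most; AP-1 matches are also in capitals. CCN2 is read from chr6:131951373-131951622 on the minus strand, ANKRD1 from chr10:90921088-90921337 on the minus strand and YAP1 from chr11:102110197-102110446 on the plus strand.
CCN2: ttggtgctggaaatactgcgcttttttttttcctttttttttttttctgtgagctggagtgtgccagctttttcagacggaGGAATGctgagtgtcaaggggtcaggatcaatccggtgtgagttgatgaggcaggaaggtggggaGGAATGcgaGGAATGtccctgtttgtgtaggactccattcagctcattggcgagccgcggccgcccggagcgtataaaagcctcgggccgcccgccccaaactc
ANKRD1: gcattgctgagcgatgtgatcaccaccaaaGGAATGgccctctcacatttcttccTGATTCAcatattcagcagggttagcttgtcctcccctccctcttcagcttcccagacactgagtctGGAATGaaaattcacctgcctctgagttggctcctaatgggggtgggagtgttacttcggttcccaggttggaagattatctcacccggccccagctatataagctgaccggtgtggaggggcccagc
YAP1: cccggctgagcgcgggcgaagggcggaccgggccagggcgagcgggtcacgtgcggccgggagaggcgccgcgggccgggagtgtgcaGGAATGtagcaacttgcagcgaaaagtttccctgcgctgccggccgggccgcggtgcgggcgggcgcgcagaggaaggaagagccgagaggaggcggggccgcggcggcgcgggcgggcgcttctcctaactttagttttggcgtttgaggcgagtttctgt
The CCN2 window held 3 TEAD cores, beginning 169, 104 and 95 bases before the start. The ANKRD1 window held 2, beginning 220 and 128 bases before the start, with 1 AP-1 match between them at 195. YAP1 held 1 core at 162 bases, and 1 of the AMOTL2 windows held 1 at 69 bases. The windows of WWTR1, TEAD3, LATS1 and LATS2 held 0 TEAD cores, and 1 of the LATS1 windows held 1 AP-1 match at 245 bases. Of all 35116 promoter windows of this length, 11.9% held at least 1 TEAD core, 0.94% held 2 or more and 6.57% held the AP-1 motif. The AP-1 pattern allowed any base at its center, which was T in the ANKRD1 match and A in the LATS1 match. The matches describe letters, not binding.

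Depth differed between the assays. Input libraries held 2276693 to 2845568 counts and footprint libraries 10127477 to 19181588, and the median standard error of a gene's log2 change was 0.23 in input, 0.16 in footprints and 0.28 for ribosome density. A count is 1 read in an open reading frame, so levels are given as CPM (counts over the library total, rescaled to a common base, scaled by the trimmed mean of M-values), and the intervals that follow from raw counts cover counting error only. DUSP6, a direct feedback target of ERK signaling, went from 202 to 268 CPM in the DMSO inputs to 0 to 1.94 CPM in the trametinib inputs, so the libraries matched their treatment labels. The 6 epithelial markers summed to 5070 to 7515 CPM in the DMSO inputs and 8064 to 10051 CPM in the trametinib inputs. Of the 6, 3 were called higher in input and 4 in footprints (edgeR), beside 12.4% and 23.4% of all tested genes. The leukocyte list summed to at most 0.831 CPM in any input library, and in footprints to 0.215 to 0.548 CPM in DMSO and 2.16 to 3.34 CPM after trametinib, from LYZ and CD74, with PTPRC at 0 counts in the trametinib libraries. LYZ and CD74 were called higher in footprints, but passed the count filter only through the trametinib footprint libraries. The endothelial sum was also higher after trametinib in input (8.55 to 9.52 CPM against 0.783 to 3.64), from VWF, with PECAM1 at 0 counts in the trametinib inputs, while the fibroblast sum stayed at or below 15.0 CPM. VWF was called higher in both assays, and COL1A1, the only fibroblast marker tested, in neither. VWF had 1 to 15 counts in the DMSO libraries and 20 to 31 in the trametinib libraries. It too passed the count filter only through the trametinib libraries, so its calls depend on the filter. The part of these lists in the results was not tested. One dish stood apart: the input and footprint libraries of DMSO replicate 1 deviated from their group means together (Pearson r = 0.83 across 7137 genes, which are not independent replicates), against -0.15 to 0.35 for the other 5 pairs. Results that rest on DMSO replicate 1 are given with and without it. As in any bulk measurement, fewer cells of a type and less RNA per cell cannot be told apart.

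Counts were tested with edgeR's quasi-likelihood test in 3 comparisons: trametinib against DMSO in input, the same in footprints, and the difference between those changes, the change in ribosome density (footprints per input mRNA). A gene was called at a Benjamini-Hochberg adjusted p under 0.05 over 12000 tested genes. Of the 10 genes, 9 had enough counts to be tested, and ANKRD1 did not. In input, 0 of the 9 were called higher, against a background of 12.4% of all tested genes, and 2 were called lower (YAP1 and TEAD1), against 16.9%. In footprints, 0 were higher against 23.4%, and 3 were lower (YAP1, TEAD1 and WWTR1) against 25.1%. The median log2 change of the 9 genes was -0.36 in input, where CCN2 enters with its fitted value (-0.27 with CCN2 set at its counting bound), and -0.34 in footprints, beside -0.04 and -0.01 over all tested genes. The shares called lower were near the background and no gene was called higher, so what follows concerns which genes moved and by how much.

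**Figure D1:**
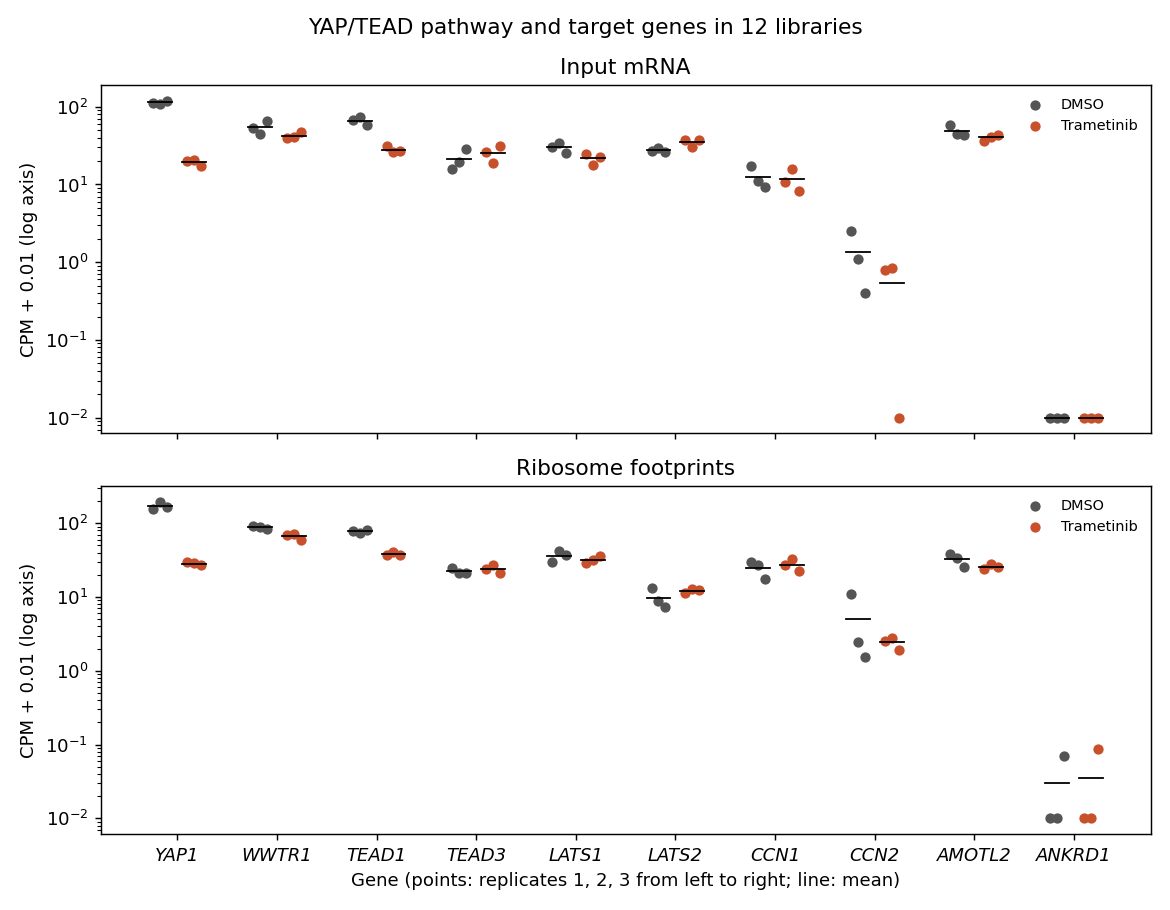
CPM (log axis, 0.01 added so that zeros can be drawn) of the 10 genes in the 6 input libraries (top) and the 6 footprint libraries (bottom); each point is 1 library, replicates 1 to 3 from left to right, and each line is a group mean. YAP1 and TEAD1 are lower in all trametinib libraries of both assays, CCN2 is highest in DMSO replicate 1, and ANKRD1 sits at the bottom of both panels.

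YAP1 showed the largest change among these genes. It encodes the principal coactivator of the pathway (chr11:102110447-102233424, plus strand, coding length 1512 bases). Its input level was 112, 110 and 119 CPM in the 3 DMSO dishes and 20.2, 20.7 and 17.4 CPM after trametinib. Its footprint level was 157, 197 and 168 CPM in DMSO and 29.6, 28.5 and 26.8 CPM after trametinib. The groups did not overlap in either assay, and the replicates within a group lay close together. YAP1 mRNA fell to 0.171-fold (95% CI 0.132 to 0.222), a log2 change of -2.55 ± 0.17 (SE, n = 3 per group, edgeR adjusted p = 1.32e-07). YAP1 footprints fell to 0.163-fold (95% CI 0.134 to 0.199), a log2 change of -2.62 ± 0.13 (edgeR adjusted p = 8.40e-07). The ribosome density of YAP1, given as footprint CPM over input CPM of the same replicate, was 1.40, 1.79 and 1.41 in DMSO and 1.47, 1.38 and 1.54 after trametinib. The groups overlapped, and the log2 change in density was -0.07 with a 95% CI of -0.47 to 0.33 (edgeR adjusted p = 0.99). On the scaled levels, footprints therefore fell by about as much as the mRNA, within that interval, which leaves a change common to all mRNAs unmeasured.

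WWTR1 encodes TAZ, the paralog of YAP (chr3:149517235-149736714, minus strand, coding length 1200 bases). It changed far less. Its input level was 53.7, 44.1 and 65.8 CPM in DMSO and 39.2, 41.0 and 46.9 CPM after trametinib, with overlap. The log2 change in input was -0.36 ± 0.19 and was not called (edgeR adjusted p = 0.169). Its footprint level was 93.1, 88.4 and 82.4 CPM in DMSO and 69.3, 70.6 and 58.7 CPM after trametinib. The log2 change in footprints of -0.41 ± 0.11 passed the threshold (edgeR adjusted p = 0.0163). That call was lost without trametinib footprint replicate 1 (log2 change -0.39, adjusted p = 0.0697), 2 (-0.40, 0.0547) or 3 (-0.33, 0.0617), and when libraries were scaled by their total counts (-0.21, 0.156). The log2 change in density was -0.05 (95% CI -0.50 to 0.40).

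The balance of the coactivators shifted from YAP1 toward WWTR1. Per kb of coding sequence, YAP1 made up 62.6% ± 3.7 (SD, n = 3) of the summed YAP1 and WWTR1 input level in DMSO and 26.8% ± 3.5 after trametinib. In footprints the YAP1 share went from 61.0% ± 3.4 to 25.4% ± 1.2. The summed level of both genes went from 121 ± 12.4 to 48.2 ± 2.32 CPM per kb in input and from 188 ± 13.4 to 73.9 ± 6.29 in footprints. YAP1 ranked highest of the 10 genes per coding kb in DMSO in both assays, and WWTR1 ranked highest after trametinib. The log2 ratio of YAP1 to WWTR1 counts within a library, which does not depend on library scaling, was 1.05, 1.31 and 0.86 in the DMSO inputs and -0.95, -0.98 and -1.42 in the trametinib inputs. It differed by -2.19 in input and by -2.20 in footprints, without overlap in either (2-sided exact permutation p = 0.1, the smallest that 3 against 3 libraries allow; adjusted p = 0.16 over 8 ratio tests).

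**Figure D2:**
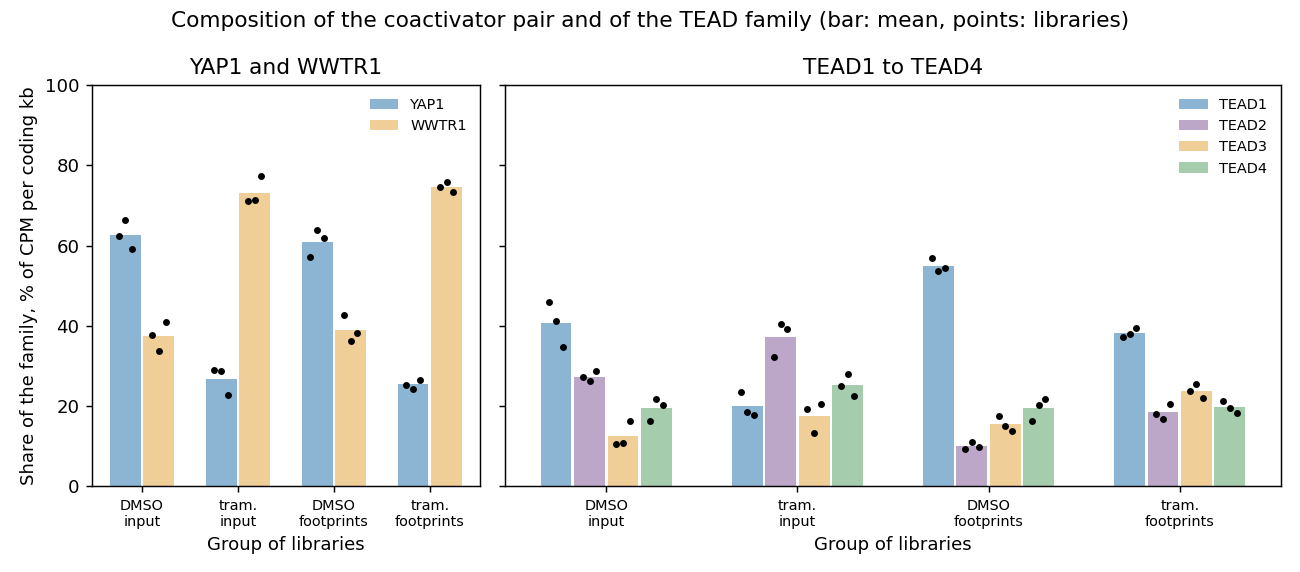
Share of each gene, in percent of the family's summed CPM per coding kb, in the 4 groups of libraries; bars are means of 3 libraries and points are the libraries. YAP1 goes from above WWTR1 in DMSO (62.6% of input) to below it after trametinib (26.8%), and the TEAD1 share is lower after trametinib in input (40.6% to 19.9%) and in footprints (55.0% to 38.2%).

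TEAD1, a DNA-binding partner of YAP and TAZ (chr11:12674421-12944737, plus strand), was the other gene that fell in both assays. Its input level was 68.0, 72.9 and 58.8 CPM in DMSO and 31.1, 26.1 and 26.6 CPM after trametinib. Its footprint level was 77.9, 73.8 and 80.8 CPM in DMSO and 37.1, 40.2 and 37.2 CPM after trametinib. All trametinib libraries lay below all DMSO libraries. The log2 change was -1.25 ± 0.18 in input (edgeR adjusted p = 1.42e-04) and -1.02 ± 0.10 in footprints (edgeR adjusted p = 6.83e-05), which is 0.420-fold and 0.492-fold. The log2 change in density was 0.23 (95% CI -0.15 to 0.61). YAP1 and TEAD1 were the only 2 of the 9 tested genes whose treatments did not overlap, in the same direction, in both assays; 35.6% of all tested genes did so.

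TEAD3, a paralog of TEAD1 (chr6:35473597-35497079, minus strand), was not called. Its input level was 15.7, 19.7 and 28.2 CPM in DMSO and 26.0, 19.0 and 31.2 CPM after trametinib. Its footprint level was 24.7, 20.9 and 21.0 CPM in DMSO and 24.1, 27.4 and 21.1 CPM after trametinib. The groups overlapped in both assays. The log2 change was 0.27 (95% CI -0.29 to 0.82) in input and 0.12 (95% CI -0.20 to 0.45) in footprints. The log2 ratio of TEAD1 to TEAD3 differed by -1.52 in input and by -1.14 in footprints, trametinib minus DMSO, without overlap (2-sided exact permutation p = 0.1 each, adjusted p = 0.16).

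The remaining TEAD paralogs moved in opposite directions in footprints. TEAD2 rose by a log2 change of 0.37 ± 0.13 (edgeR adjusted p = 0.0435), from 13.4, 16.0 and 15.6 CPM to 19.0, 18.8 and 20.4 CPM. TEAD4 fell by a log2 change of -0.48 ± 0.17 (edgeR adjusted p = 0.0367), from 22.9, 28.3 and 33.1 CPM to 21.6, 21.1 and 17.5 CPM. In input neither was called, with log2 changes of 0.23 and 0.13. Neither footprint call was firm. The TEAD2 call was lost without DMSO footprint replicate 1 (0.30) or 2 (0.42) or any trametinib footprint library (0.34 to 0.45), with the replicate number as a block (0.38, edgeR adjusted p = 0.0567) and with DESeq2 (0.38, adjusted p = 0.0553). The TEAD4 call was lost without DMSO footprint replicate 2 (-0.48) or 3 (-0.28), or without trametinib footprint replicate 1 (-0.49), 2 (-0.47) or 3 (-0.40), under scaling by total counts (-0.29), and with the replicate number as a block (-0.47, edgeR adjusted p = 0.0585). Summed over TEAD1 to TEAD4, the level went from 129 ± 11.7 to 110 ± 6.53 CPM per kb in input and from 110 ± 5.13 to 78.2 ± 4.38 in footprints. TEAD1 held 40.6% ± 5.7 of the TEAD input in DMSO and 19.9% ± 3.1 after trametinib, and TEAD2 held 27.4% ± 1.3 and 37.3% ± 4.5. In footprints TEAD1 remained the highest of the family, at 55.0% ± 1.6 and 38.2% ± 1.2.

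LATS1 and LATS2, the kinases that inhibit YAP and TAZ, were not called in any comparison. LATS1 (chr6:149658153-149718105, minus strand) had input levels of 30.8, 34.6 and 25.1 CPM in DMSO and 24.9, 17.8 and 22.8 CPM after trametinib. LATS2 (chr13:20973036-21061586, minus strand) had input levels of 27.2, 29.2 and 25.9 CPM in DMSO and 36.9, 30.6 and 37.0 CPM after trametinib. In input the LATS1 estimate was lower (log2 change -0.47 ± 0.21, edgeR adjusted p = 0.119) and the LATS2 estimate higher (0.35 ± 0.19, edgeR adjusted p = 0.182), and neither was called.

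In footprints both kinases overlapped between treatments. LATS1 footprints were 29.8, 41.9 and 36.6 CPM in DMSO and 29.0, 31.5 and 35.4 CPM after trametinib. LATS2 footprints were 13.2, 8.80 and 7.29 CPM in DMSO and 11.3, 13.0 and 12.4 CPM after trametinib. The log2 changes were -0.17 (95% CI -0.52 to 0.17) for LATS1 and 0.32 (95% CI -0.17 to 0.81) for LATS2. LATS2, itself a target gene, was highest in footprints of DMSO replicate 1; without that library its log2 change was 0.62 and was called (edgeR adjusted p = 0.00437). The log2 ratio of LATS1 to LATS2 counts in input was 0.18, 0.25 and -0.04 in DMSO and -0.57, -0.78 and -0.69 after trametinib, a difference of -0.80 without overlap (2-sided exact permutation p = 0.1, adjusted p = 0.16). In footprints the difference was -0.53 with overlap (exact permutation p = 0.4). Without DMSO footprint replicate 1 it was -0.90, with no overlap among the libraries left, and without DMSO footprint replicate 3 it was -0.33. Their summed level was 17.3 ± 1.92 and 17.1 ± 2.17 CPM per kb in input and 13.6 ± 1.23 and 13.2 ± 1.13 in footprints, in DMSO and trametinib respectively. LATS2 had low ribosome densities, of 0.282 to 0.486 in the DMSO replicates, while those of LATS1 were 0.967 to 1.46. These are ratios of CPM, not ribosomes per mRNA. Footprints far below input were not particular to LATS2. Mean DMSO levels were 39.6 CPM in footprints and 118 CPM in input for NF2, and 13.8 and 81.3 CPM for WWC2.

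AMOTL2 encodes an angiomotin family protein that binds YAP and is itself a YAP/TEAD target (chr3:134355347-134375479, minus strand). Its input level was 57.6, 44.8 and 43.5 CPM in DMSO and 36.1, 41.4 and 43.6 CPM after trametinib. Its footprint level was 38.5, 34.1 and 25.1 CPM in DMSO and 23.8, 27.9 and 25.4 CPM after trametinib. The groups overlapped in both assays, and DMSO replicate 1 was highest in both. The log2 change was -0.27 ± 0.18 in input (edgeR adjusted p = 0.292) and -0.34 ± 0.17 in footprints (edgeR adjusted p = 0.123). Without DMSO replicate 1 these were -0.13 and -0.19, and without DMSO footprint replicate 3 the footprint change was -0.44 and was called (edgeR adjusted p = 0.0312).

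CCN1, a secreted matricellular protein gene (chr1:85580761-85584589, plus strand), did not change detectably. Its input level was 17.5, 10.9 and 9.40 CPM in DMSO and 10.9, 15.7 and 8.31 CPM after trametinib. Its footprint level was 30.1, 26.8 and 17.4 CPM in DMSO and 27.2, 32.7 and 22.2 CPM after trametinib. The spread within each treatment was as wide as the difference between them. The log2 change was -0.12 (95% CI -0.79 to 0.54) in input and 0.15 (95% CI -0.35 to 0.65) in footprints, and without DMSO input replicate 1 the input value was 0.19. CCN1 mRNA had a high ribosome density among these genes, at 1.72, 2.46 and 1.85 in DMSO and 2.50, 2.08 and 2.67 after trametinib.

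CCN2, the gene of connective tissue growth factor (chr6:131948176-131951372, minus strand), was scarce, and its level varied most between DMSO dishes. In input it had 7, 3 and 1 counts in DMSO and 2, 2 and 0 counts after trametinib, too few for its fitted fold to be read, so none is given. The ratio of summed input counts, trametinib over DMSO, was 0.413 with a 95% counting interval of 0.0960 to 1.40. In footprints it had 10.9, 2.47 and 1.51 CPM in DMSO and 2.54, 2.81 and 1.93 CPM after trametinib. DMSO replicate 1 lay above all other footprint libraries, and the other 2 DMSO libraries overlapped the trametinib libraries. The log2 change in footprints was -1.06 (95% CI -2.49 to 0.37, edgeR adjusted p = 0.193). Without DMSO footprint replicate 1 it was 0.37 (adjusted p = 0.299), and without DMSO footprint replicate 3 it was -1.46 and was called (edgeR adjusted p = 0.0391). No direction for CCN2 can be read from these libraries. The log2 ratio of CCN1 to CCN2 differed by 0.98 in input and 0.69 in footprints, with overlap (exact permutation p = 0.3 and 0.5); without DMSO footprint replicate 1 the footprint difference was 0.021.

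ANKRD1 (chr10:90912096-90921087, minus strand), whose promoter window holds 2 TEAD cores, had 0 counts in all 6 input libraries. The 3 trametinib and 3 DMSO footprint libraries held 1 count each in sum. The limit of 3 counts corresponds to 0.199 CPM over the input libraries and 0.0323 CPM over the footprint libraries, so the mRNA was not detected in input at this depth.

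**Figure D3:**
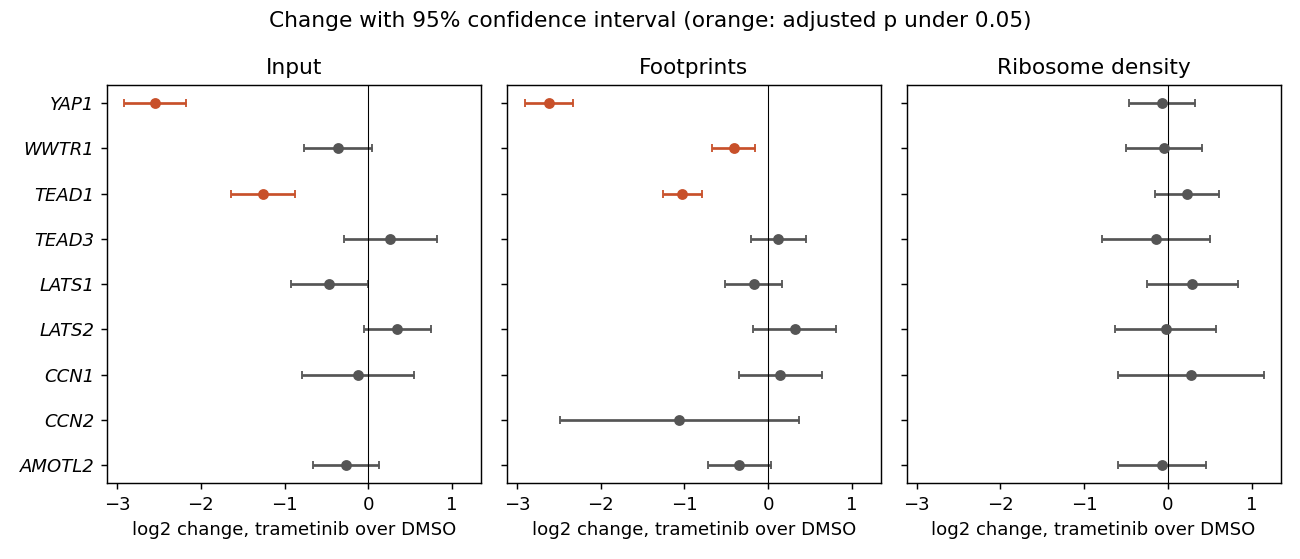
Log2 change, trametinib over DMSO, with its 95% confidence interval for the 9 tested genes in input, footprints and ribosome density; orange marks an edgeR adjusted p under 0.05. YAP1 and TEAD1 are orange and left of 0 in input and footprints, WWTR1 is orange in footprints only, and every interval drawn for ribosome density includes 0; CCN2 is drawn only for footprints because its input counts were too few.

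No change in ribosome density, relative to the other mRNAs, was called for the 9 tested genes. With edgeR, 0 were called higher (background 0.05%) and 0 lower (background 0.75%), and 0 had an unadjusted p under 0.05; DESeq2 called 0 as well. All tested genes had 6 higher and 90 lower calls, 25 and 135 with the dish as a replicate block, 35 and 150 with DESeq2, and 21 and 74 with scaling by total counts. Leaving CCN2 aside for its counts, the log2 changes in density ran from -0.14 for TEAD3 to 0.29 for LATS1. The intervals were narrowest for TEAD1 (-0.15 to 0.61) and YAP1 (-0.47 to 0.33) and widest for CCN1 (-0.60 to 1.14), so moderate changes in density of the scarcer genes were not detectable at this depth.

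DMSO replicate 1 held the highest level of some of these genes. It was the highest of the 3 DMSO dishes in both assays for 3 of the 9 tested genes (CCN1, CCN2 and AMOTL2; 33.3%), against 23.3% of all tested genes, which for 9 genes is no more than a description. In footprints CCN2 was 4.58 times the mean of DMSO replicates 2 and 3 (CPM + 0.5), LATS2 1.60 times, CCN1 1.35 times and AMOTL2 1.30 times. YAP1, WWTR1 and TEAD1 were at 0.860, 1.09 and 1.01 times. In the wider signature of 22 YAP/TAZ targets, which includes 5 of the 10 genes, 11 of 19 tested genes (57.9%) were highest in this dish in both assays, among them NT5E at 3.64 times and GADD45A at 2.92 times in footprints. Genes other than targets were also highest there. In both assays this dish was highest for 9 of 25 other Hippo components (36%). These included WWC2 at 2.12 times and AJUBA at 2.01 times in footprints. It was also highest in both assays for the epithelial markers CDH1 (2.18 times in footprints), KRT18 (1.62), KRT8 (1.29) and KRT19 (1.28). It was not highest in both assays for the markers EPCAM (1.25) and CLDN4 (1.11). The comparison of this dish with the others was chosen after the data were examined and rests on 1 dish.

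**Figure D4:**
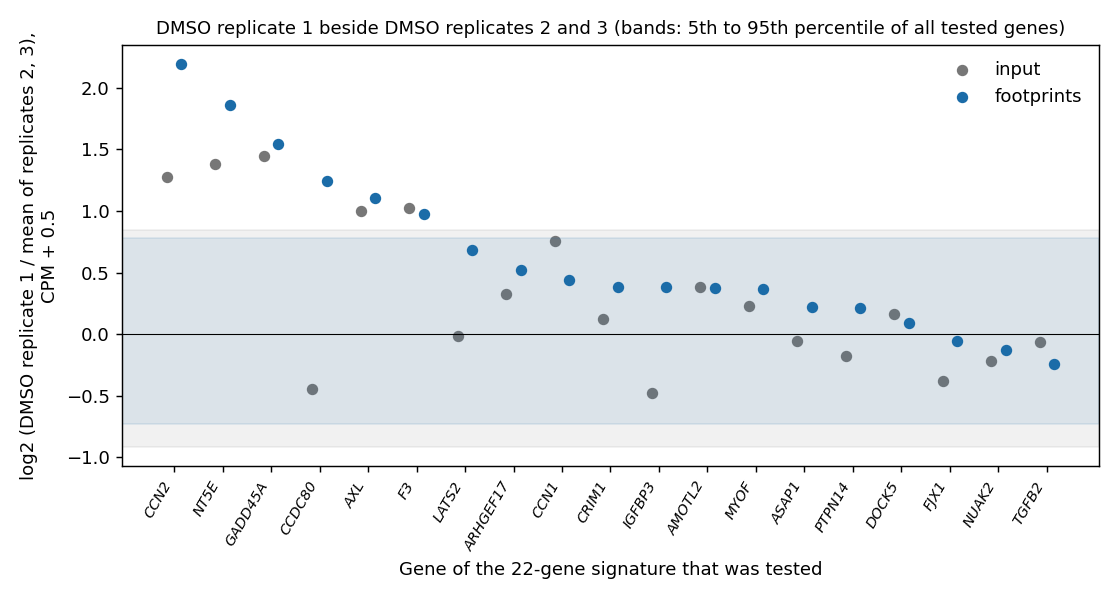
Log2 ratio of DMSO replicate 1 over the mean of DMSO replicates 2 and 3 (CPM + 0.5) for the 19 tested genes of the 22-gene YAP/TAZ target signature, in input (grey) and footprints (blue); the shaded bands span the 5th to 95th percentile of all tested genes. CCN2 (2.20 in footprints), NT5E (1.86), GADD45A (1.55), AXL (1.11) and F3 (0.98) lie above the band in both assays.

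Beyond the 10 genes, the other Hippo components were tested from a list of 28, of which 25 had enough counts (DCHS1, VGLL1 and VGLL3 did not). In input 4 (16%) were higher and 2 (8%) lower, against 12.4% and 16.9% of all tested genes. In footprints 6 (24%) were higher and 3 (12%) lower, against 23.4% and 25.1%. In ribosome density 0 were called by edgeR (background 0.05% and 0.75%), with 2 at an unadjusted p under 0.05. The shares called higher were close to the background. The median log2 change was 0.13 in input and 0.11 in footprints, beside -0.04 and -0.01 over all tested genes. AMOT, VGLL4 and PTPN14 rose in both assays, SCRIB fell in both, and RASSF1 fell in footprints. NF2, the upstream scaffold merlin, had log2 changes of -0.42 and -0.32 that were not called (edgeR adjusted p = 0.0570 and 0.0536). Its treatments did not overlap in either assay, as for 35.6% of all tested genes. AMOT, a YAP-binding angiomotin, rose from 6.08, 8.02 and 9.79 CPM to 21.0, 23.2 and 18.7 CPM in input (log2 change 1.40 ± 0.25, edgeR adjusted p = 9.03e-04) and by 1.62 in footprints. VGLL4, which competes with YAP for TEAD, rose by 1.07 in input and 0.73 in footprints (edgeR adjusted p = 0.00418 and 0.00616). PTPN14, a phosphatase that binds YAP and is also in the target signature, rose by 0.65 in input and 1.03 in footprints (edgeR adjusted p = 0.0143 and 3.18e-04); its input call was lost without trametinib input replicate 3 (0.60).

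The called genes of the upstream branch moved both ways, while STK3, STK4, SAV1, MOB1A and MOB1B were called in neither assay. The kinase gene TAOK3 rose by 0.61 in footprints and TAOK1 by 0.29, while TAOK2 rose by 0.61 in input (edgeR adjusted p = 0.00351, 0.0406 and 0.0280). In the other assay each was not called: TAOK3 input -0.03, TAOK1 input 0.25 and TAOK2 footprints 0.61 (edgeR adjusted p = 0.950, 0.275 and 0.0611). RASSF1, a scaffold of the upstream kinases, fell with a log2 change of -1.28 in footprints (edgeR adjusted p = 1.49e-04), and its input change was -0.96 (edgeR adjusted p = 0.0451). SCRIB, a polarity gene, had log2 changes of -0.73 in input and -0.86 in footprints (edgeR adjusted p = 0.00622 and 0.00793). The RASSF1 input call was lost without DMSO input replicate 1, 2 or 3 or trametinib input replicate 1 or 2 (-0.63 to -1.02). The TAOK2 call was lost without DMSO input replicate 1 or any trametinib input library (0.41 to 0.65), and the TAOK1 call without DMSO footprint replicate 2 or any trametinib footprint library (0.26 to 0.35) and with the replicate number as a block (0.29, edgeR adjusted p = 0.0559).

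The target signature split in both directions. Without the 10 genes above but with PTPN14, which both lists hold, 15 of 17 were tested: RBMS3 had too few counts and FOXF2 has no row in the table used here. In input 4 (26.7%) were higher and 4 (26.7%) lower, against 12.4% and 16.9% of all tested genes. In footprints 4 (26.7%) were higher and 5 (33.3%) lower, against 23.4% and 25.1%. The 4 higher in footprints include IGFBP3, which passed the count filter only through the libraries where it was high. The 4 higher in input include CCDC80, which had 0, 1 and 0 counts in the DMSO inputs and 7 in each trametinib input. In ribosome density 0 were called, with 1 at an unadjusted p under 0.05 (edgeR). The median log2 change was -0.06 in input and 0.07 in footprints. The surface nucleotidase gene NT5E fell most, from 305, 83.9 and 83.0 footprint CPM in DMSO to 33.3, 27.7 and 26.6 CPM (log2 change -2.43 ± 0.47, edgeR adjusted p = 0.00281), and by a log2 change of -2.12 in input. Without DMSO replicate 1 the NT5E changes were -1.51 and -1.49 and stayed called. F3, the tissue factor gene, fell with log2 changes of -1.52 in input and -1.41 in footprints (edgeR adjusted p = 0.00290 and 0.00261), which were -1.09 and -0.9996 without DMSO replicate 1. The stress-response gene GADD45A had log2 changes of -1.16 and -1.46 (edgeR adjusted p = 0.0296 and 0.0157). Without DMSO replicate 1 these were -0.49, no longer called, and -0.73, still called; the input call was also lost without trametinib input replicate 1 (-1.13), 2 (-1.32) or 3 (-1.003), and the footprint call without trametinib footprint replicate 2 (-1.33) or 3 (-1.46).

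DOCK5, a guanine nucleotide exchange factor gene, fell with log2 changes of -0.67 in input and -0.47 in footprints (edgeR adjusted p = 0.00524 and 0.00394). FJX1 had a log2 change of -0.84 in footprints (edgeR adjusted p = 0.0233), lost without DMSO footprint replicate 3 or any trametinib footprint library (-0.64 to -0.95). Among the genes that rose, MYOF, a membrane repair protein gene, gained 0.66 in input and 0.55 in footprints on the log2 scale (edgeR adjusted p = 0.00456 and 0.00942). ARHGEF17 rose by 0.93 in input, and CRIM1 by 0.47 in footprints (edgeR adjusted p = 0.00431 and 0.0202). Neither was called in the other assay: ARHGEF17 footprints 0.49 and CRIM1 input 0.33 (edgeR adjusted p = 0.0795 and 0.127). The CRIM1 call was lost without DMSO footprint replicate 2 (0.38) or trametinib footprint replicate 3 (0.42). IGFBP3 footprints went from 8, 2 and 5 counts to 14, 27 and 36 counts (log2 change 2.26, edgeR adjusted p = 0.0120). The gene passed the count filter only through those trametinib libraries, so its call depends on the filter and is not read as support for a rise. CCDC80 input counts were 0, 1 and 0 in DMSO and 7 in each trametinib library, at least 2.55-fold higher against a floor of 3 counts per library. Its footprint counts were 19, 2 and 3 in DMSO and 17, 14 and 9 after trametinib, and that change was not called (log2 change 0.58, edgeR adjusted p = 0.459).

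**Figure D5:**
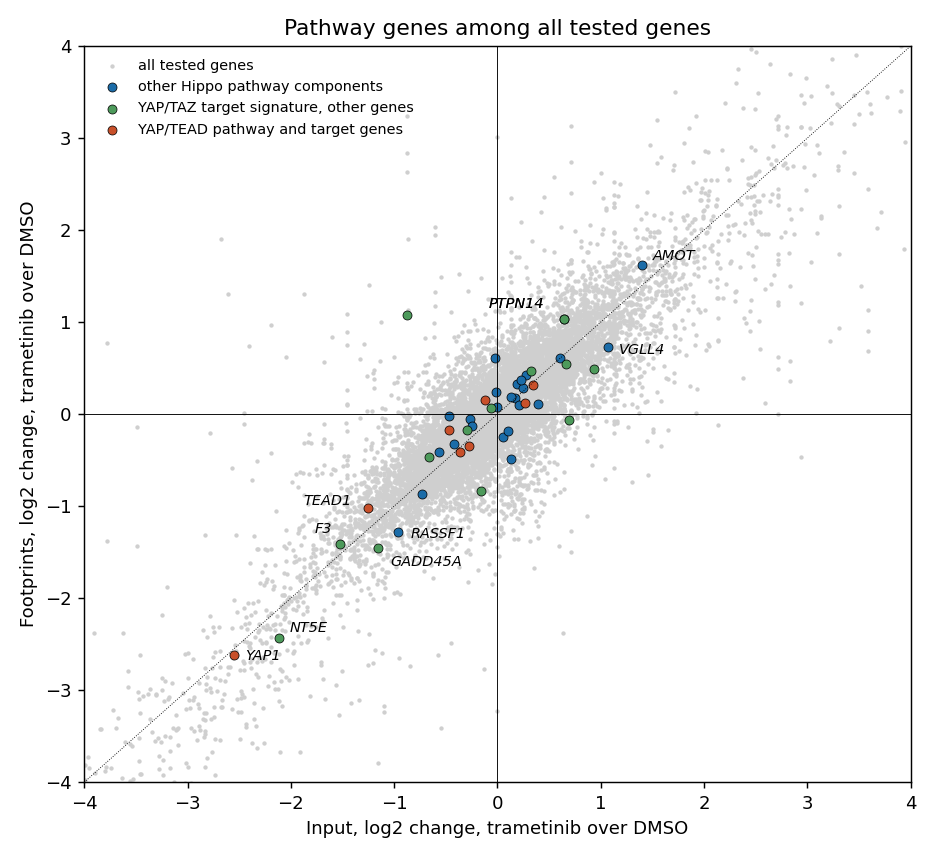
Log2 change in input (x axis) against log2 change in footprints (y axis), trametinib over DMSO, for all tested genes (grey), the other Hippo components (blue), the other signature genes (green) and the YAP/TEAD pathway and target genes (orange); the dotted line marks equal change, and CCN2, CCDC80 and IGFBP3 are left out for low input counts. YAP1 (-2.55, -2.62) and NT5E (-2.12, -2.43) lie at the lower left near the line and AMOT (1.40, 1.62) at the upper right; axes are cut at 4 in each direction.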

How the data were processed

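The deposited table held, for 12 HCT116 libraries, raw read counts per gene symbol and, in further columns, size-factor-scaled values. Per the study's methods, the authors trimmed adapters, removed rRNA and tRNA reads with Bowtie 1.2.2, mapped the rest to the Gencode basic set, and counted reads of footprint length in open reading frames of 1 gene symbol only. The deposited normalized signal is each count times 1 factor per library and was only checked. Columns with the authors' fold changes, adjusted p-values (DESeq2 1.46.0) and gene classes were not used. No per-sample column was left unused (0).

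The 12000 genes that reached 10 counts in 3 or more of the libraries were fitted with edgeR 4.0.16 in R 4.3.3 (TMM scaling, quasi-likelihood test, Benjamini-Hochberg adjustment over all tested genes). Each assay was fitted on its own 6 libraries, and ribosome density as the interaction of assay and treatment over all 12. Alternatives were DESeq2 1.42.0, limma 3.58.1 (limma-trend), other scalings and filters, replicate blocks and leaving out libraries. Ratios of paralogs used counts + 0.5. The fitting script was tested on simulated data. Coding lengths and gene positions came from GENCODE (GRCh38) and promoters from RefSeq; no protein sequence was used. The members and lists were chosen with earlier results of these data known. Named genes were all 10 members, DUSP6, and up to 5 called genes per direction and comparison from both other lists, ordered by p. TEAD2, NF2, WWC2, AJUBA, AXL, STK3, STK4, SAV1, MOB1A, MOB1B and the marker genes named fall outside this rule and were named after their values were seen.

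Input RNA was taken from the lysates used for footprints per the study's methods; the labels tie both by an equal replicate number. The correlation of their deviations was 0.83, 0.18 and 0.35 in DMSO and 0.14, 0.07 and -0.15 in trametinib. Between treatments, libraries of equal number gave 0.06, 0.05 and 0.36 (input) and 0.12, 0.13 and 0.30 (footprints). The main fits used no pairing. For the density per replicate and the dish block, the number paired each footprint library with its input, following the methods. Outside DMSO replicate 1 the correlations do not establish that pairing. Only the alternative with the replicate number as a block paired libraries across treatments. The replicates are biological per the series' design; nothing else on their independence was used.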

Additional observations from a re-analysis of the deposited data

How the results depend on the processing

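The calls of YAP1 and TEAD1 in input and footprints held under all alternatives run, with log2 changes without 1 library of -2.59 to -2.44 and -2.68 to -2.52 for YAP1 and -1.34 to -1.18 and -1.06 to -0.93 for TEAD1. Among the 9 tested members, the number lower in footprints ran from 2 to 5 and the number higher from 0 to 1 when 1 library was left out. Scaling by total counts moved the median log2 change of all genes to 0.19 in footprints and 0.17 in ribosome density, gave 4034 genes higher and 2077 lower in footprints instead of 2808 and 3006, and turned the sign of uncalled values: 0.022 for LATS1 footprints, and for density 0.070 (YAP1), 0.097 (WWTR1), 0.0060 (TEAD3), 0.12 (LATS2) and 0.069 (AMOTL2). LATS2 density was also 0.010 with the filter on input libraries and 0.021 with limma-trend. Without 1 library, density ran from -0.14 to 0.026 (YAP1), -0.20 to 0.086 (WWTR1), -0.40 to 0.053 (TEAD3), -0.19 to 0.27 (LATS2), -0.043 to 0.55 (CCN1) and -0.21 to 0.076 (AMOTL2). Without DMSO replicate 1 in both assays, a setting chosen after the data were examined, it was 0.0076 (WWTR1), 0.12 (TEAD3) and 0.28 (LATS2). Likewise CCN1 input ran from -0.40 to 0.19 and CCN2 footprints from -1.46 to 0.37.

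Over all genes, higher calls in ribosome density moved from 6 to 35 (DESeq2), 25 (dish as replicate block), 21 (total counts), 10 (filter on input libraries) and 11 (no filter), and ran from 1 to 12 without 1 library, with 21 without DMSO replicate 1 in both assays; lower calls moved from 90 to 150 (DESeq2) and ran from 56 to 116 without 1 library. Without 1 library, higher calls in input ran from 989 to 1602 and lower calls in footprints from 2003 to 3567. The replicate block across treatments gave 1746 and 2323 calls in input, 2820 and 2996 in footprints and 9 and 100 in density. It ended the footprint calls of TEAD2 (0.38), TAOK1 (0.29) and TEAD4 (-0.47). It changed no other call of the tested members, or of the other lists' named genes in the assays where they were called. Not followed there were DUSP6, CCN2 input and density, CCDC80 input, and the genes named outside the rule except TEAD2. TEAD2 footprints (0.38) lost their call under DESeq2. RASSF1 input lost its call under 5 other settings and GADD45A input (-0.94) under limma-trend. FJX1 lost its call under DESeq2 (-0.84) and total counts (-0.64), and TEAD4 under total counts (-0.29), no filter (-0.44) and the filter on input libraries (-0.40). Without 1 footprint library the difference in the CCN1 to CCN2 ratio ran from 0.021 to 1.04 and that in the LATS1 to LATS2 ratio from -0.90 to -0.33. Causes were not tested. Depth limits CCN2, ANKRD1 and the density of the scarcer genes.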
